A study of Mus musculus with 34 samples.

Results

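The genes described here are 10 transcripts of glucose use and its hypoxia-linked control in mouse blood: Hif1a, the glucose transporter genes Slc2a1 and Slc2a3, the hexokinase genes Hk1, Hk2 and Hk3, and Pfkfb3, Pgk1, Pkm and Ldha. They were chosen by name and matched by symbol to the Ensembl gene IDs of the count tables, which list 54532 genes, and all 10 were found. The study sequenced polyadenylated blood RNA of wild-type mice that received ALY688, named in the series title as an agonist of the adiponectin receptor, with or without LPS, the bacterial lipopolysaccharide that sets off an acute inflammatory response. Counts were analysed for 30 of 34 labelled mice: 9 given PBS (phosphate-buffered saline), 10 given ALY688, 4 given LPS and 7 given ALY688 and LPS together. The remaining labelled mice (number 10 of PBS, numbers 3, 4 and 5 of LPS) were not analysed here. Every sample is labelled blood and WT, while the design text speaks of plasma for the ALY688 experiment and of whole blood for the LPS experiment. Doses, times, strain, sex and age were not given in the sources used here. Mice with and without LPS may come from separate experiments, which cannot be told apart from the effect of LPS itself.

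Glycolysis splits glucose into pyruvate and yields ATP without oxygen. Glucose enters through transporters such as GLUT1 (Slc2a1) and GLUT3 (Slc2a3), is trapped by hexokinases, passes the phosphofructokinase step that the PFKFB3 product fructose 2,6-bisphosphate stimulates, and ends as lactate when lactate dehydrogenase A (Ldha) reduces pyruvate. HIF-1 is a transcription factor made of HIF-1α (Hif1a) and ARNT. Oxygen-dependent hydroxylation marks HIF-1α for destruction, so its protein level is set largely after transcription, and inflammatory signals such as LPS are known to raise it in myeloid cells. Many glycolytic genes are textbook HIF-1 targets. In blood, neutrophils rely on glycolysis, platelets carry GLUT3, and mature red cells have no mitochondria and depend on glycolysis altogether.

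HIF-1 binds DNA at a core of ACGTG or GCGTG. Promoter sequence is shown for the 4 members whose LPS mice all lay above all PBS mice (13.2% of the 12353 genes tested did so). It is also shown for Pkm, whose upstream window lacks the core while its other window holds it. Each sequence is the 250 bases before a RefSeq start (GRCm38.p6), printed 5′ to 3′ on the strand of the gene. Capitals mark ACGTG or GCGTG, which read CACGT or CACGC where the core lies on the opposite strand. A CACGTG counts as a match on each strand.
Hif1a, chr12:73907617-73907866, + strand: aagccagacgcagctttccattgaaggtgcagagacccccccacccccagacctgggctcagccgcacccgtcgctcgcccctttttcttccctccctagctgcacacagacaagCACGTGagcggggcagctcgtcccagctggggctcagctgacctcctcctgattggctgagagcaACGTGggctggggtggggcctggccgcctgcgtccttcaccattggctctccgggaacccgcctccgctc
Slc2a1, chr4:119108495-119108744, + strand: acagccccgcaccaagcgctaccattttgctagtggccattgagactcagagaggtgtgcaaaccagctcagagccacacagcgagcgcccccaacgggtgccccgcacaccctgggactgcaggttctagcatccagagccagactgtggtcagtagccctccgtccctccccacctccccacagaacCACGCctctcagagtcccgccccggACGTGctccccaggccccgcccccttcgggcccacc
Hk3, chr13:55021386-55021635, - strand: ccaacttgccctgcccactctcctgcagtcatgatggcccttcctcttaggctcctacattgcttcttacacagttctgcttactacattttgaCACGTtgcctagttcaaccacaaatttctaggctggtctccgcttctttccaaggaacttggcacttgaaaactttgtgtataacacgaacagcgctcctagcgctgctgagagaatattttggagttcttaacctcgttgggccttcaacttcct
Ldha, chr7:46845554-46845803, + strand: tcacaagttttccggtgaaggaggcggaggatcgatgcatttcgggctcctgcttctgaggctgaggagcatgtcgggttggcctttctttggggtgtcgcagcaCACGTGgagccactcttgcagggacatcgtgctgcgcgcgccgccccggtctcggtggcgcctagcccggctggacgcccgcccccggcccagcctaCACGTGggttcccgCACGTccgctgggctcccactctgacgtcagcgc
Pkm, chr9:59656326-59656575, + strand: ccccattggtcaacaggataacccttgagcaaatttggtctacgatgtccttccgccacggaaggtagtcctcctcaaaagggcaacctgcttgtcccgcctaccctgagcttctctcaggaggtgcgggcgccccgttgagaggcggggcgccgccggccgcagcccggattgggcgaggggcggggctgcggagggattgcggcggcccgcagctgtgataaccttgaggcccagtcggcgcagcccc
RefSeq windows were found for 9 members, 13 windows in all, and 11 of the 13 held the core on either strand. The upstream windows of Hk1 and Pkm did not, but their other windows did, so all 9 members held it in some window. Slc2a3 had no entry. Among 32851 windows of the same length over all genes, 38.6% held it. The upstream Ldha window held 5 matches and that of Hif1a 3, while 6.58% of all windows held 3 or more. The downstream windows of Hk1 (chr10:62340422-62340671) and Pfkfb3 (chr2:11502091-11502340) also held 3 each. The Slc2a1, Hk2 and Pgk1 windows held 2 each, and the Hk3 window 1. The G and C content of the members' windows ran from 47.2% in Hk3 to 69.6% in Hk2. A match to these letters is a description of the sequence and was not tied to binding here.

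The libraries held between 9554964 and 17338214 counts, of which globin genes took 18.5% to 64.4%. Levels below are CPM, the counts relative to library size, scaled by TMM, a factor that equalises the bulk of genes between libraries and ran from 0.333 to 2.52. In 6 libraries fewer than 16000 genes had a count (PBS mice 5, 6 and 9, ALY688 mouse 7, and ALY688+LPS mice 6 and 8), so results are also given without them. Neutrophil, monocyte, platelet, red cell, T, B and NK cell markers were all present, and the sum of 6 markers of liver, muscle, skin and fat reached at most 1.00 CPM. The labels do not say that the mice of a group were handled separately, so the p-values measure the spread between these samples.

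Under LPS, 6 of the 10 members rose against PBS and none fell in edgeR's quasi-likelihood test with Benjamini-Hochberg adjustment (called at adjusted p below 0.05 throughout). Over all 12353 genes tested, 20.9% rose and 17.9% fell. Hk3 (4.04-fold) and Slc2a1 (3.72-fold) rose most, followed by Ldha, Pfkfb3, Hk2 and Hif1a. The median log2 fold change of the 10 members was 0.79, against -0.04 over all genes tested. With ALY688 given to both groups, 8 of the 10 rose against ALY688 alone and none fell, beside 26.4% rising and 26.6% falling among 12266 genes, and the members' median was 1.02 against -0.05 over all genes. Without the libraries of few detected genes, 8 of 10 rose in each comparison, beside 22.2% of 12303 genes against PBS and 30.2% of 12735 against ALY688. All LPS mice lay above all PBS mice for 4 of 10 members and 13.2% of genes tested, and all ALY688+LPS mice above all ALY688 mice for 5 of 10 members and 12.6% of genes. In bulk RNA, fewer cells of a type and less RNA per cell cannot be told apart.

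**Figure D1:**
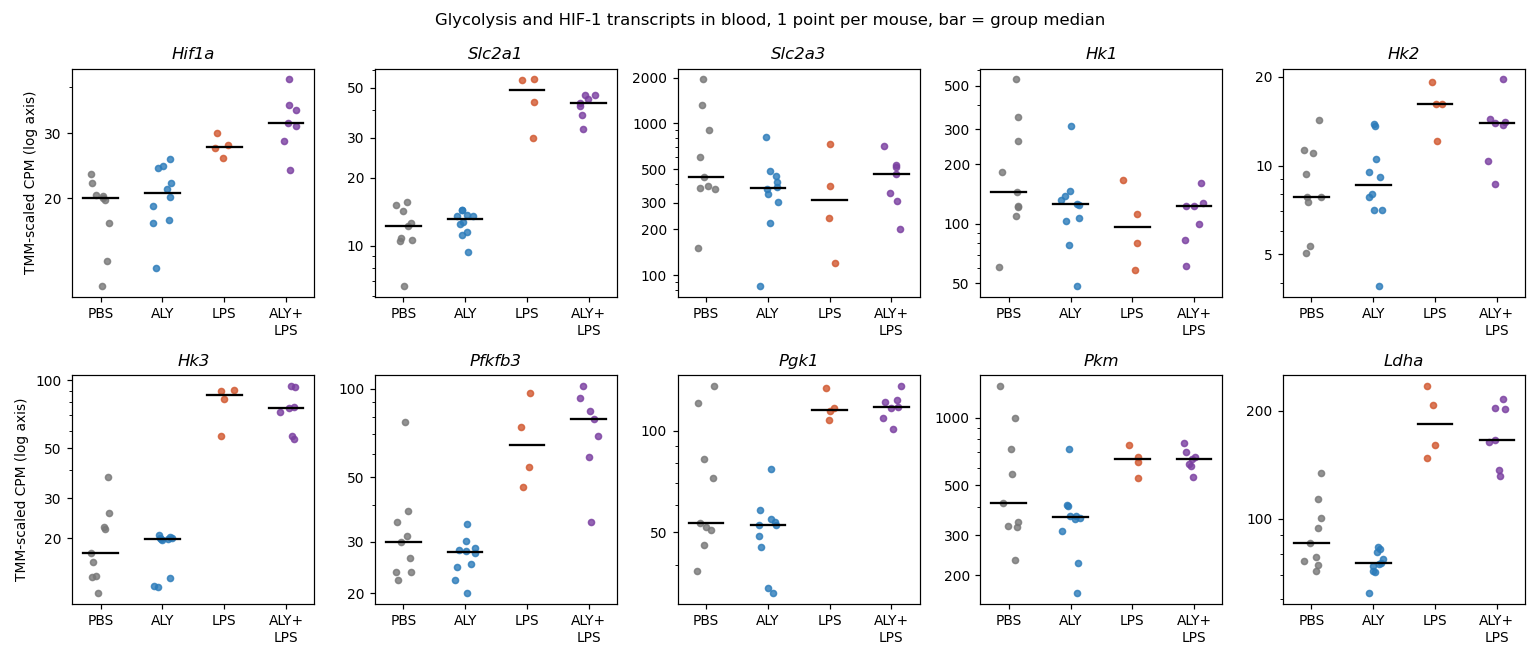
TMM-scaled CPM (log axis) of the 10 members in each of 30 mice, by group (ALY stands for ALY688), with a bar at the group median. The LPS mice lie above all PBS mice for Hif1a, Slc2a1, Hk3 and Ldha (4 of 10, beside 13.2% of all genes tested), while these groups overlap for the other 6 genes.

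Hif1a, which encodes the regulated subunit of HIF-1 (chr12:73901375-73947530, + strand, GENCODE M21 on GRCm38), stood at 25.7, 27.3, 27.9 and 30.0 CPM in the 4 LPS mice. In PBS mice it ran from 11.5 to 23.3 CPM with a median of 20.0, so every LPS mouse was above every PBS mouse. The log2 fold change was 0.56 ± 0.17 (SE), with an adjusted p of 0.0169 (edgeR). ALY688+LPS mice ran from 23.9 to 42.2 CPM around a median of 31.9, and ALY688 mice from 13.0 to 25.6 around 20.7. The ranges overlapped by the lowest ALY688+LPS mouse, and the log2 fold change was 0.68 ± 0.13 (adjusted p = 0.000145). Hif1a was 1.47-fold higher under LPS and 1.60-fold higher under ALY688+LPS, small changes beside those of Hk3 and Slc2a1. The call against PBS was lost with the globin share as a covariate (0.38, adjusted p = 0.402). Globin shares did not overlap between PBS mice (45.2% to 64.4%) and LPS mice (18.5% to 43.7%). The covariate and LPS are therefore hard to tell apart in that fit, here and below.

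Slc2a1 encodes GLUT1, the transporter that sets basal glucose uptake in many cells (chr4:119108711-119137983, + strand). Its level was 29.8, 43.4, 54.2 and 54.6 CPM in the LPS mice against 6.63 to 15.6 CPM, median 12.2, in PBS mice. The groups were far apart: the lowest LPS mouse stood well above the highest PBS mouse. The log2 fold change was 1.90 ± 0.20, or 3.72-fold (95% interval 2.78 to 4.98, adjusted p = 3.09e-06, edgeR). ALY688+LPS mice ran from 32.7 to 46.4 CPM (median 43.0) and ALY688 mice from 9.37 to 14.5 (median 13.1), with no overlap. There the difference was 1.72 ± 0.09 on the log2 scale (adjusted p = 2.31e-11, edgeR).

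Slc2a3 encodes GLUT3, a high-affinity glucose transporter (chr6:122727809-122801640, - strand). It was the more abundant transporter per length, with 99.7 ± 80.2 CPM per kb of exon in PBS mice (SD, n = 9) against 3.45 ± 0.81 for Slc2a1. In the LPS mice it stood at 120, 239, 385 and 726 CPM, and in PBS mice it ran from 151 to 1962 CPM with a median of 441. The spread within a group was wider than any difference between groups. The log2 fold change of -0.96 ± 0.63 did not pass (adjusted p = 0.243, edgeR), nor did 0.19 ± 0.33 between ALY688+LPS and ALY688 (adjusted p = 0.662). Without the libraries of few detected genes the PBS range narrowed to 151 to 605 CPM, and the difference against PBS was -0.12.

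The 3 hexokinase genes, whose products phosphorylate glucose, behaved unlike each other. Hk3, the isoenzyme known from myeloid cells (chr13:55005985-55021385, - strand), stood at 56.6, 82.8, 89.6 and 90.5 CPM in the LPS mice against 11.4 to 37.4 CPM (median 17.2) in PBS mice. No LPS mouse came near the PBS range. Hk3 rose by 2.02 ± 0.26 on the log2 scale, or 4.04-fold (2.78 to 5.88, adjusted p = 1.68e-05, edgeR). Between ALY688+LPS (54.8 to 94.7 CPM, median 75.8) and ALY688 (12.1 to 20.7 CPM, median 19.9) it rose by 2.08 ± 0.15 (adjusted p = 7.22e-10, edgeR), again with no overlap.

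Hk2, the inducible isoenzyme of muscle and activated cells (chr6:82725025-82774454, - strand), was low, at 12.1, 16.2, 16.2 and 19.2 CPM in the LPS mice and 5.04 to 14.3 CPM (median 7.83) in PBS mice. Of the 4 LPS mice, 3 lay above the highest PBS mouse. Its log2 fold change was 0.86 ± 0.24 (adjusted p = 0.00975, edgeR). ALY688+LPS mice ran from 8.63 to 19.7 CPM and ALY688 mice from 3.89 to 13.9, and 4 of 7 lay above the ALY688 range. That change of 0.60 ± 0.21 (adjusted p = 0.0193, edgeR) was no longer called without ALY688+LPS mouse 7 (0.49, adjusted p = 0.0577). With the globin share as a covariate neither Hk2 call held (adjusted p = 0.196 and 0.0754).

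Hk1, the housekeeping isoenzyme and the hexokinase of red cells and platelets (chr10:62268855-62379908, - strand), went the other way without passing. The LPS mice had 58.7, 79.9, 113 and 168 CPM, and the PBS mice 60.3 to 540 CPM with a median of 145. All but the lowest LPS mouse fell inside the PBS range. The log2 fold changes were -0.99 ± 0.50 against PBS (adjusted p = 0.131, edgeR) and -0.25 ± 0.28 between ALY688+LPS and ALY688 (adjusted p = 0.490). Without the libraries of few detected genes the former was -0.28.

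Set side by side per kb of exon, the makeup of the hexokinase transcripts differed between the groups. Hk1 made up 74.4% ± 9.89 of the sum of the 3 hexokinases in PBS mice (SD, n = 9) and 32.4% ± 7.23 in LPS mice (n = 4). Hk3 made up 19.9% ± 7.22 in PBS mice and 59.8% ± 4.70 in LPS mice. Hk3 was the leading hexokinase transcript in all 4 LPS mice, where its share was at least 53.2%, and in no PBS mouse did it exceed 30.3%. The Hk2 share lay between 5.75% and 7.79% on average in every group. In ALY688 mice the Hk3 share was 23.8% ± 5.53 (n = 10) and Hk1 led in all 10. In ALY688+LPS mice the Hk3 share was 56.9% ± 9.44 (n = 7), and Hk3 led in 6 of 7. The exception was mouse 8, a library of few detected genes, with 53.7% Hk1 and 42.2% Hk3, and in mouse 4 Hk3 led at 48.0% with Hk1 at 44.7%. Between the transporters, Slc2a1 made up 5.75% ± 4.88 of the pair in PBS mice and 24.3% ± 8.61 in LPS mice, with ranges that overlapped. These shares need no scaling between libraries, and they are given as a description with no test.

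**Figure D2:**
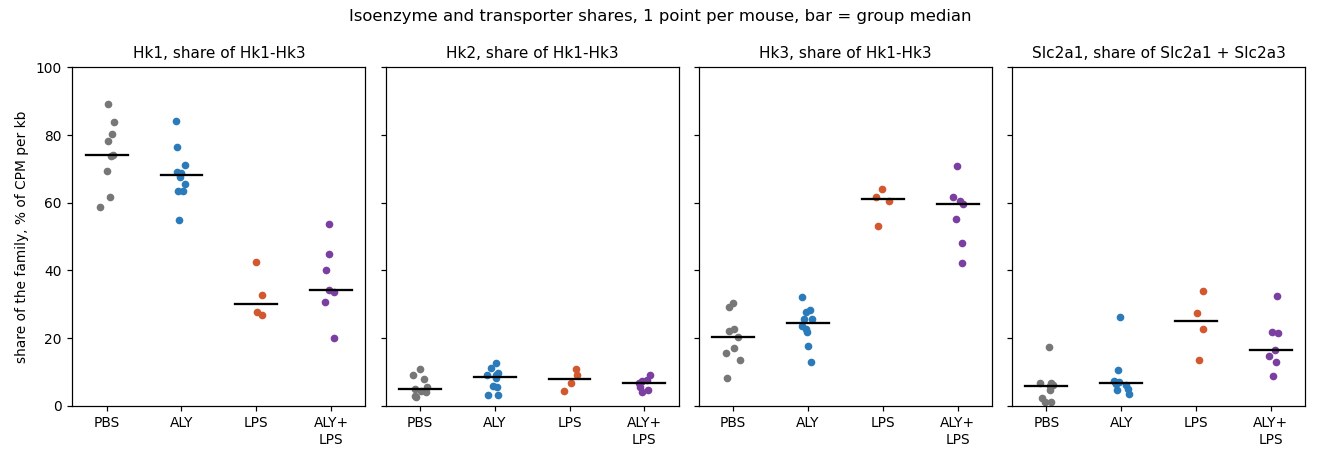
Share of each hexokinase transcript in the sum of Hk1, Hk2 and Hk3, and of Slc2a1 in the sum of Slc2a1 and Slc2a3, in percent of CPM per kb of exon, with 1 point per mouse and a bar at the group median. Hk3 passes 50% in all 4 LPS mice and in 5 of 7 ALY688+LPS mice, and stays at or under 32.3% in all mice without LPS.

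Pfkfb3 encodes the enzyme that makes fructose 2,6-bisphosphate and so speeds the committed step (chr2:11471433-11554077, - strand). It stood at 46.4, 54.2, 74.4 and 97.0 CPM in the LPS mice and at 22.3 to 77.2 CPM (median 30.1) in PBS mice. The overlap came from PBS mouse 9, since the next PBS mouse was at 38.3 CPM. Its log2 fold change was 1.00 ± 0.29 (adjusted p = 0.0128, edgeR), and it was no longer called without LPS mouse 8 (0.80, adjusted p = 0.0666). ALY688+LPS mice (35.2 to 103 CPM, median 79.2) all lay above ALY688 mice (20.0 to 34.5 CPM, median 27.7), with a log2 fold change of 1.48 ± 0.16 (adjusted p = 3.29e-07, edgeR).

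Pgk1, whose product makes ATP in the later steps of glycolysis (chrX:106187100-106203699, + strand), stood at 108, 114, 117 and 134 CPM in the LPS mice. PBS mice ran from 38.5 to 136 CPM with a median of 53.2, and 2 PBS libraries of few detected genes reached the LPS range. The log2 fold change of 0.71 ± 0.30 did not pass (adjusted p = 0.0708, edgeR). It passed without PBS mouse 5 (0.83, adjusted p = 0.0317), without PBS mouse 9 (0.88, adjusted p = 0.0141) and without all 3 PBS libraries of few detected genes (1.15, adjusted p = 0.000299). Between ALY688+LPS (101 to 135 CPM) and ALY688 (32.9 to 76.7 CPM) Pgk1 rose by 1.21 ± 0.14 (adjusted p = 6.01e-07, edgeR) with no overlap.

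Pkm, which encodes the muscle-type pyruvate kinases (chr9:59656368-59679375, + strand), was the most abundant member per length in LPS mice, at 130 ± 18.0 CPM per kb (SD, n = 4). The LPS mice had 536, 635, 669 and 754 CPM, inside the PBS range of 232 to 1382 CPM (median 418). The difference of 0.14 ± 0.44 did not pass (adjusted p = 0.822, edgeR). Without the libraries of few detected genes it was 0.78 and passed (adjusted p = 0.0315). ALY688+LPS mice ran from 545 to 769 CPM and ALY688 mice from 166 to 727 CPM, where the highest was mouse 7, and Pkm rose by 0.82 ± 0.23 (adjusted p = 0.00576, edgeR). Pkm shares 767 exonic bases with Gm49759 on the same strand, which held up to 666 counts in a library, so its counts are uncertain to that extent.

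Ldha closes the pathway by turning pyruvate into lactate (chr7:46841475-46855627, + strand). The LPS mice had 148, 161, 208 and 235 CPM, all above the PBS range of 71.8 to 135 CPM (median 85.8). Its log2 fold change was 1.03 ± 0.22, or 2.04-fold (1.49 to 2.80, adjusted p = 0.0014, edgeR). With the globin share as a covariate the difference was 1.18 and missed the threshold (adjusted p = 0.0578). ALY688+LPS mice (132 to 215 CPM) and ALY688 mice (62.1 to 83.6 CPM) did not overlap either, and Ldha rose by 1.21 ± 0.11 (adjusted p = 3.84e-08, edgeR). Ldha and Pgk1 have related pseudogene copies, so reads that match several copies may be missing from their counts.

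**Figure D3:**
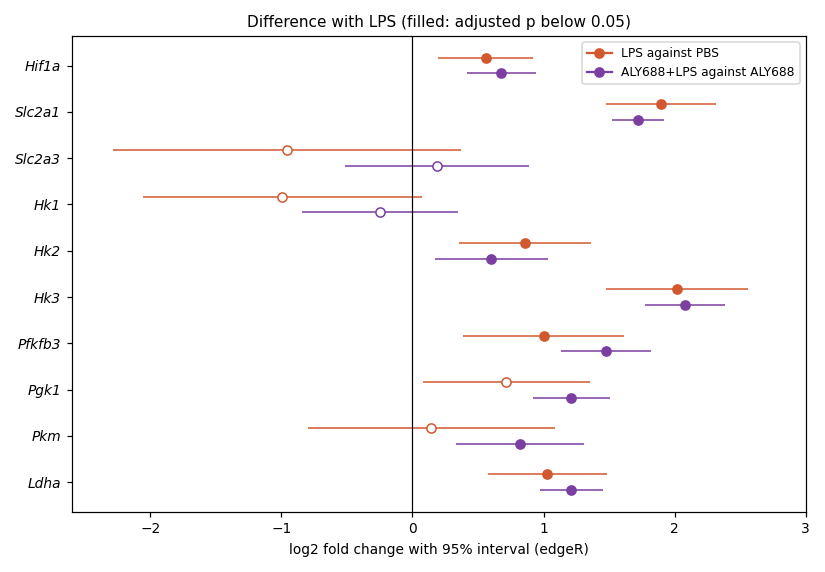
Log2 fold change with its 95% interval for each member, for LPS against PBS (orange) and ALY688+LPS against ALY688 (purple). Filled points passed at adjusted p below 0.05: 6 members in the former and 8 in the latter comparison, all above 0, while Slc2a3 and Hk1 passed in neither.

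The scale mattered for some of these values. Without TMM factors the median log2 fold change of all genes in LPS against PBS was 1.04, with 5600 genes rising and 296 falling in place of 2577 and 2208. On that scale all 10 members were above 0, with 8 called beside 45.3% of genes rising, Pkm (1.52, adjusted p = 2.05e-05, edgeR) and Pgk1 (2.08) among them, and Slc2a3 (0.26) and Hk1 (0.29) lay below the all-gene median. Between ALY688+LPS and ALY688 the split without TMM was 1845 rising and 1204 falling in place of 3236 and 3268, and the calls of Hif1a and Hk2 were lost (adjusted p = 0.113 and 0.0899), which left 6 members called beside 15.0% of genes rising.

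Markers of blood cell types moved with LPS beside these genes. All 10 neutrophil markers rose against PBS, and their summed level went from 580 to 2194 CPM in PBS mice to 4094 to 14150 CPM in LPS mice. In ALY688+LPS mice it was 5553 to 13170 CPM, against 528 to 1438 CPM in ALY688 mice, with 9 of 10 markers rising. Of 8 monocyte markers 5 rose in each comparison and Cx3cr1 fell in ALY688+LPS against ALY688 (-0.52 ± 0.18, adjusted p = 0.02, edgeR), with sums of 842 to 3815 CPM in PBS mice, 850 to 1991 in ALY688 mice, 2060 to 2638 in LPS mice and 1902 to 3029 in ALY688+LPS mice. All 6 B cell markers fell in both comparisons, as did 6 of 7 T cell markers against PBS and 7 of 7 against ALY688. Platelet marker sums spanned 1578 to 26530 CPM in PBS mice, 658 to 11600 in ALY688 mice, 1169 to 5920 in LPS mice and 952 to 8201 in ALY688+LPS mice. Of 7 platelet markers tested, 4 fell against PBS and none passed against ALY688. NK cell markers rose in 3 of 5 and 2 of 5 cases, and of 8 red cell markers 1 fell against PBS and 1 rose against ALY688. No marker of these blood cell lists was at 0 in any group, although Gp1bb of the platelet list reached at most 0.27 CPM on average. The part of these cell types in the members' changes was not tested.

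Within groups, many members varied with marker sums from mouse to mouse: of 40 relations, the 10 members against the platelet, neutrophil, monocyte and T cell sums, 29 passed at an adjusted p below 0.05. The share of all genes that would pass was not computed. Without TMM factors the sign turned for several passed relations. These were Hk3 and Pfkfb3 with platelet markers, Hif1a and Slc2a1 with monocyte markers, and Hk1, Hk3, Pfkfb3, Pkm and Pgk1 with T cell markers. With the T cell markers Pkm went from -0.718 to 0.391 and Pgk1 from -0.634 to 0.666. Whether one relation was closer than another was not tested. Among these 40, the highest correlations were those of Slc2a3 and Hk1 with the platelet markers. The red cell marker sum was not among the relations computed. With the globin share of counts, Slc2a3 and Hk1 correlated within groups at Pearson r = 0.658 and 0.65. That share is a percentage without log or TMM scaling, so these values are not on the measure used for the marker sums. On the TMM scale, PBS mice 5, 6 and 9 had the highest red cell marker sums of their group (1944000, 1547000 and 1579000 CPM). They also had the highest Slc2a3 (1317, 900 and 1962 CPM). Over 30 mice, with log2 levels centred on each group's mean, Slc2a3 correlated with the summed platelet markers at Pearson r = 0.981 and Spearman rho = 0.976 (permutation p within groups 1e-05, the smallest that 100000 permutations can give, adjusted p = 6.67e-05 for r and 1e-04 for rho over 40 relations). Without the 2 mice farthest from the median r was 0.972, and without TMM factors 0.921. Within single groups r was 0.997 in PBS, 0.996 in ALY688 and 0.978 in ALY688+LPS mice, and the LPS group was too small for a value. Hk1 gave r = 0.969 and rho = 0.988, with 0.964 without the 2 farthest mice, 0.789 without TMM factors and the same permutation p-values.

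Counted directly against the markers of the same library, Slc2a3 had 8.22 ± 0.99 counts per 100 platelet marker counts in PBS mice (SD, n = 9) and 8.93 ± 1.57 in ALY688 mice (n = 10). It had 11.4 ± 0.86 in LPS mice (n = 4) and 12.5 ± 4.18 in ALY688+LPS mice (n = 7). Its CPM varied by 80.5% of the mean among the PBS mice, far more than this ratio did. Hk1 had 2.58 ± 0.60 counts per 100 platelet marker counts in PBS mice and 3.76 ± 0.92 in LPS mice, and 3.27 ± 1.46 in ALY688 mice and 3.35 ± 1.48 in ALY688+LPS mice. The higher ratios under LPS depend on the marker used. Against PBS, the log2 fold changes of Pf4 (-1.01) and Itga2b (-1.04) were near those of Slc2a3 (-0.96) and Hk1 (-0.99). The other platelet markers tested were at -1.79 or lower, among them Ppbp (-2.54), which made up 3348 of 9492 CPM in PBS mice on average.

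Pkm and Pgk1 varied with the platelet, monocyte and neutrophil markers alike. With the platelet markers r was 0.837 and 0.765 (rho 0.794 and 0.699, permutation p = 1e-05 for each r), but 0.335 and 0.08 without TMM factors, and -0.124 for Pkm and 0.001 for Pgk1 in ALY688+LPS mice. With the monocyte markers Pkm gave r = 0.809 and rho = 0.737 (permutation p = 5e-05 and 0.00026, adjusted p = 0.0002 and 0.000867) and Pgk1 gave r = 0.869 and rho = 0.787 (permutation p = 1e-05 and 8e-05, adjusted p = 6.67e-05 and 0.000533). That relation was also present without the 2 farthest mice (0.794 and 0.836), without TMM factors (0.801 and 0.896) and in ALY688+LPS mice alone (0.686 and 0.858). Lyz2 made up most of the monocyte sum, on average 1674 of 1991 CPM in PBS mice and 1512 of 2284 in LPS mice. The monocyte values therefore rest largely on that gene, and the relations without it were not computed. With the neutrophil markers r was 0.699 and 0.616, and 0.723 and 0.728 without TMM factors.

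Hk3 and Pfkfb3 varied with the neutrophil markers, and with others too. Against the neutrophil markers Hk3 gave r = 0.821 and rho = 0.791 (permutation p = 1e-05 for both, adjusted p = 6.67e-05 and 1e-04), with 0.767 without the 2 farthest mice and 0.895 without TMM factors. Within groups it was 0.904 in PBS, 0.685 in ALY688 and 0.779 in ALY688+LPS mice. Pfkfb3 gave r = 0.764 and rho = 0.712 (permutation p = 3e-05 and 0.00014, adjusted p = 0.000171 and 0.000655), 0.689 without the 2 farthest mice and 0.854 without TMM factors, with 0.837 in PBS, 0.56 in ALY688 and 0.796 in ALY688+LPS mice. With the platelet markers r was 0.425 for Hk3 (adjusted permutation p = 0.0494) and 0.455 for Pfkfb3 (adjusted permutation p = 0.0271), and -0.039 and -0.06 without TMM factors. Within groups those platelet values went from 0.692 and 0.926 in ALY688 mice to -0.605 and -0.57 in ALY688+LPS mice. The sign also turned with the scaling for the T cell markers, where Hk3 was at -0.559, and at 0.686 without TMM factors. Per 100 neutrophil marker counts, Hk3 stood at 1.87 ± 0.37 in PBS mice and 0.99 ± 0.33 in LPS mice, and Pfkfb3 at 3.22 ± 0.69 and 0.82 ± 0.25. Both genes were therefore higher in CPM under LPS, and lower relative to the summed neutrophil markers. For Hk3 the fall depends on the marker used. S100a8 and S100a9 made up much of the sum in LPS mice (2761 and 3018 of 9172 CPM on average). Against PBS, Csf3r of the same list rose by 1.80 on the log2 scale, less than Hk3 (2.02), and the other markers by 2.52 or more.

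**Figure D4:**
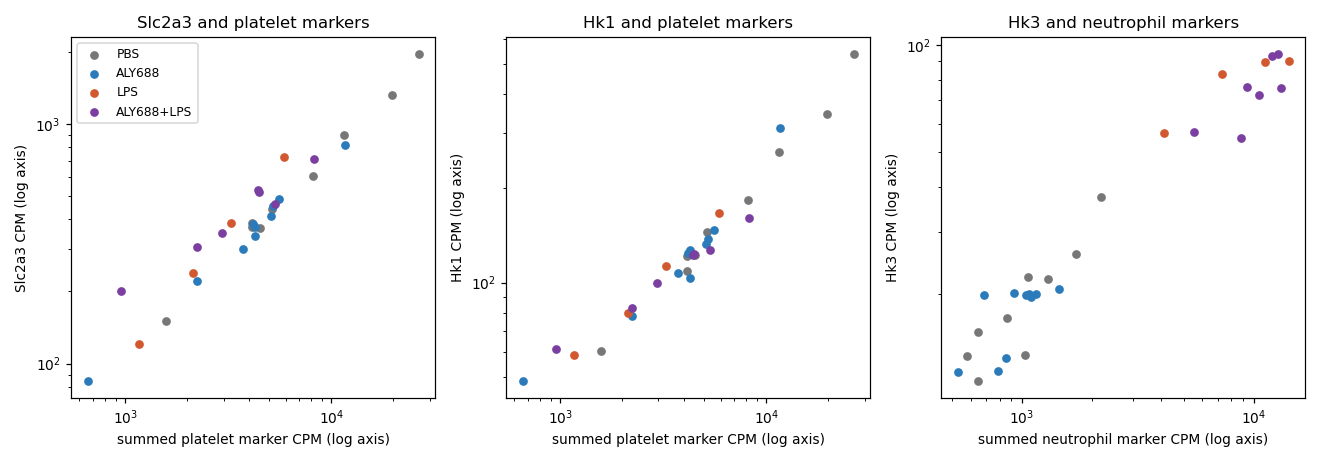
Level of Slc2a3 and Hk1 against the summed platelet markers, and of Hk3 against the summed neutrophil markers, in TMM-scaled CPM on log axes with 1 point per mouse coloured by group. Slc2a3 and Hk1 run along a line with the platelet markers (r = 0.981 and 0.969 within groups), while for Hk3 the LPS and ALY688+LPS mice stand apart at higher levels of both.

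Patterns of single genes placed the members near different partners. By Pearson correlation of group-centred log2 CPM over 30 mice, the genes most like Slc2a3 were Smim3 (0.995) and Treml2 (0.992), and those most like Hk1 were Derl1 and Ptpn11 (0.984 each). Slc2a3 and Hk1 correlated with each other at 0.978. Hk3 was most like Rasgrp4 (0.872) and Hdc (0.871), and Pfkfb3 most like Lasp1 (0.91) and Cpne2 (0.889). Pkm was most like Ccnd3 (0.983) and Card19 (0.972), and Pgk1 most like the glycolytic aldolase gene Aldoa (0.969) and Cfl1 (0.964). The partners of Ldha (Akr1a1, 0.844, and Mthfd1, 0.836), Hif1a (Tex10, 0.875, and Traf6, 0.865), Slc2a1 (Dennd3, 0.822, and Lrrc75b, 0.794) and Hk2 (Tiam1, 0.811, and Tnfrsf21, 0.801) were less close. These points share libraries and scaling factors.

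Other enzymes of glycolysis followed the LPS groups in part. Of 17 tested against PBS, 7 rose and 2 fell, beside 20.9% and 17.9% of all genes. The list's median log2 fold change was 0.24 against -0.04 over all genes. The upward calls lay at several steps: Gpi1, which isomerises glucose 6-phosphate (1.60 ± 0.19), Pfkl and Pfkp of the phosphofructokinase step (0.68 and 0.63), Gapdh (1.01), Pgam1 (1.84 ± 0.19), and the enolases Eno1 (1.46 ± 0.20) and Eno3 (1.25). Aldoa (-0.001) and Tpi1 (-0.78) did not pass, although Aldoa was called without TMM factors (1.42, adjusted p = 0.000167, edgeR). Pfkm (-1.18) and Ldhb (-0.95) fell, but without TMM factors both were slightly above 0 (0.054 and 0.21) and not called. With the globin covariate 4 genes rose and none fell, beside 13.1% of 12353 genes rising and 1645 falling. Pfkl (-0.42), Pfkp (-0.035) and Eno3 (-0.16) changed sign, and Gapdh, Pfkm and Ldhb were not called. Gapdh was counted at only 3.64 ± 0.92 CPM in PBS mice (SD, n = 9); it has many near-identical pseudogenes, and its value is uncertain. Between ALY688+LPS and ALY688, 9 of 18 rose and 3 fell, beside 26.4% and 26.6% of all genes. Without TMM factors 6 rose and 1 fell, beside 15.0% of 12266 genes rising and 1204 falling. The smallest p-values were those of Pgam1 (1.65), Gpi1 (1.61), Eno1 (1.41) and Pfkfb4 (1.20), a relative of Pfkfb3. Gapdh rose by 1.62 ± 0.46 there (adjusted p = 0.0069, edgeR), but missed the threshold with the globin covariate (adjusted p = 0.07).

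Among the other transporters, Slc16a3, which encodes the lactate exporter MCT4, rose from 21.8 ± 6.50 CPM in PBS mice (SD, n = 9) to 130 ± 14.3 in LPS mice (n = 4), a log2 fold change of 2.58 ± 0.20 (adjusted p = 2.36e-07, edgeR). That was a larger change than any of the 10 members showed. Slc2a6, a transporter known from macrophages, rose by 2.15 ± 0.22 (adjusted p = 2.42e-06, edgeR), and the other 4 of 6 tested did not pass. Over all genes tested against PBS, 20.9% rose and 17.9% fell. Against ALY688, Slc16a3 (2.74) and Slc2a6 (2.13) rose and Slc2a8 (-0.75) fell, the last not called without TMM factors (adjusted p = 0.331). Among all genes, 26.4% rose and 26.6% fell in that comparison as reported.

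Few partners and regulators of HIF-1α passed, beside 20.9% of all genes rising and 17.9% falling against PBS. Of 10 tested against PBS, Arnt, which encodes the constant subunit of HIF-1, rose by 0.70 ± 0.16 (adjusted p = 0.00274, edgeR). Elob, a subunit of the ligase that destroys HIF-1α, fell by 1.46 ± 0.48 (adjusted p = 0.0234, edgeR). With the globin covariate Elob was at 0.78 and Arnt was not called. Without TMM factors 5 of the 10 genes rose and none fell, beside 45.3% of 12353 genes rising and 296 falling. Between ALY688+LPS and ALY688, Arnt (0.67) and the oxygen sensor Egln3 (0.77) rose and Hif1an (-0.23) fell. None of these 3 calls held without TMM factors (adjusted p = 0.111, 0.134 and 0.785). In that fit none of the 10 genes passed, beside 15.0% of all genes rising. Hif1an was also not called without the libraries of few detected genes (adjusted p = 0.0527). The list's medians of -0.02 and 0.06 lay near those of all genes, of which 26.4% rose and 26.6% fell between ALY688+LPS and ALY688.

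Beside 20.9% of all genes rising against PBS and 17.9% falling, further textbook HIF-1 targets went both ways. Of 12 tested against PBS, 3 rose, namely Vegfa, an angiogenic factor (1.67 ± 0.41), P4ha1, a collagen prolyl hydroxylase subunit (1.29 ± 0.19), and Ero1l (0.75). The 4 that fell were Pdk1, the kinase that restrains pyruvate dehydrogenase (-1.90 ± 0.20), Ndrg1 (-2.84 ± 0.62), Mxi1 (-1.63) and the mitophagy receptor gene Bnip3l (-1.86). With the globin covariate 2 rose and 1 fell, beside 13.1% of 12353 genes rising and 1645 falling. Mxi1 (1.19) and Bnip3l (1.01) changed sign, and Ndrg1 (-0.13, adjusted p = 0.92) and Ero1l (0.46, adjusted p = 0.502) were not called. Without TMM factors the calls of Pdk1 (-0.73, adjusted p = 0.181) and Mxi1 (-0.44, adjusted p = 0.151) were lost, and without the libraries of few detected genes those of Mxi1 and Bnip3l (adjusted p = 0.0719 and 0.0749). Between ALY688+LPS and ALY688, P4ha1 (1.14), Ero1l (0.55) and Bnip3 (0.69) rose and Pdk1 (-1.58), Ndrg1 (-1.69) and Kdm3a (-0.46) fell. So 3 of 12 went each way, near the 26.4% rising and 26.6% falling among all genes. Without the libraries of few detected genes that count was 5 of 12 each way, and without TMM factors 1 rose and 2 fell. Among all genes, 30.2% of 12735 rose and 3562 fell without those libraries. Without TMM factors 15.0% of 12266 rose and 1204 fell. The medians were 0.16 and 0.08.

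At the entry of pyruvate into mitochondria, 2 of 10 genes rose against PBS (Pdk3, 0.99, and Pdha1, 0.48), near the 20.9% of all genes that rose. Pdk2 fell (-1.21), beside 17.9% of all genes. Between ALY688+LPS and ALY688, 3 rose (Pdk3, 1.36, Pdha1, 0.51, and Dld, 0.52) and 3 fell (Pdk2, -0.90, Pdhb, -0.33, and Pdp1, -0.58). These counts were near the all-gene shares of 26.4% rising and 26.6% falling. Without TMM factors 5 rose and none fell against PBS (Pdk2 -0.028, adjusted p = 0.958), beside 45.3% of all genes rising. In that setting 1 rose and none fell against ALY688, beside 15.0% of all genes rising. With the globin covariate Pdk2 (adjusted p = 0.201) and Pdha1 (adjusted p = 0.313) were not called against PBS. In the pentose phosphate pathway, which branches from glucose 6-phosphate and supplies NADPH, 4 of 7 genes rose against PBS and none fell: G6pdx (1.48 ± 0.29), Tkt (1.47 ± 0.18), Pgd (1.34 ± 0.26) and Rpe (1.05 ± 0.19). Between ALY688+LPS and ALY688 the same genes rose (1.89, 1.44, 1.65 and 1.18), and Pgls (-0.49) and Rpia (-0.44) fell. The falls were not called without TMM factors (adjusted p = 0.515 and 0.584), nor was Rpe against PBS with the globin covariate (adjusted p = 0.0599). This list had medians of 1.05 and 1.18, against 0.79 and 1.02 for the 10 members.

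ALY688 alone called none of the 10 members against PBS in edgeR's test, and 0% of the 11708 genes tested, with 1250 genes at an unadjusted p below 0.05. DESeq2 called none either, with 1656 genes at an unadjusted p below 0.05. The members at an unadjusted p below 0.05 in edgeR were Ldha (-0.31 ± 0.13, p = 0.0304), Pgk1 (-0.52 ± 0.23, p = 0.0385) and Slc2a3 (-0.91 ± 0.43, p = 0.0479), each with an adjusted p of 0.442. DESeq2 gave 4 such members. Ldha ran from 62.1 to 83.6 CPM (median 75.2) in ALY688 mice and from 71.8 to 135 CPM in PBS mice, so 3 of 10 ALY688 mice lay below the PBS range. The members' median log2 fold change was -0.33, against 0.03 over all genes. Without the libraries of few detected genes, of which 3 were PBS and 1 ALY688, that median was -0.11 and no member had an unadjusted p below 0.05.

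The intervals differed in what they leave possible. For Slc2a1 the fold was 1.03 (95% interval 0.865 to 1.23) and for Hif1a 1.08 (0.901 to 1.29), so changes beyond these bounds lay outside the intervals. Hk2 (1.02, 0.745 to 1.40) and Hk3 (0.894, 0.671 to 1.19) were less tightly bounded. Pkm (0.621, 0.378 to 1.02), Hk1 (0.626, 0.365 to 1.07) and Pfkfb3 (0.783, 0.588 to 1.04) had intervals that reach well below 1.

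ALY688 given with LPS also called none of the 10 members against LPS alone, and 0% of 12741 genes, with 463 genes and no member at an unadjusted p below 0.05. DESeq2 called none, with 635 genes at an unadjusted p below 0.05. The members' median log2 fold change was -0.0003, and 5 were above 0 and 5 below. Hif1a had the smallest p (0.23 ± 0.14, p = 0.117, adjusted p = 0.913, edgeR), and 5 of 7 ALY688+LPS mice were above the highest LPS mouse. Hk3 was at 74.9 ± 15.7 CPM in ALY688+LPS mice (SD, n = 7) and 79.9 ± 15.9 in LPS mice (n = 4), and the interval of the fold was 0.708 to 1.24. For Slc2a1 it was 0.718 to 1.17, for Ldha 0.689 to 1.24, for Pgk1 0.817 to 1.21 and for Slc2a3 0.61 to 2.33. A difference of the size of the LPS effect on Hk3 or Slc2a1 lay far outside these bounds.

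**Figure D5:**
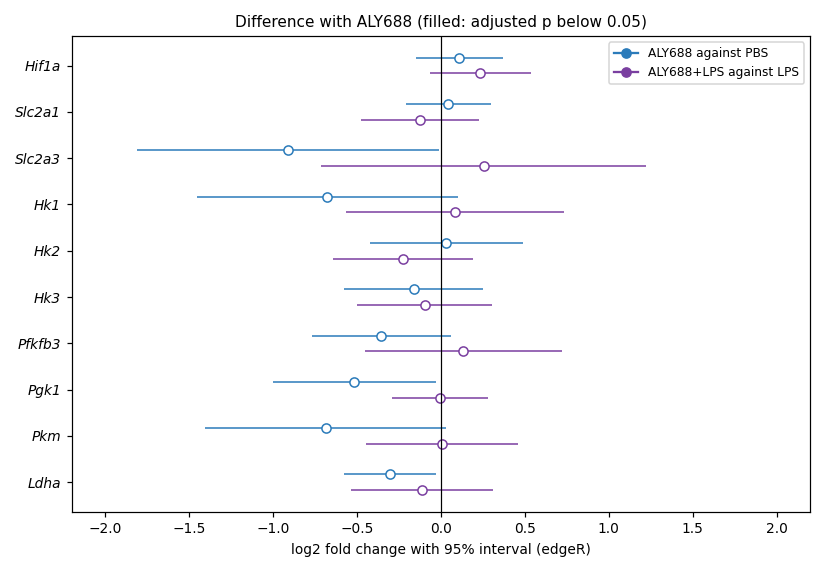
Log2 fold change with its 95% interval for each member, for ALY688 against PBS (blue) and ALY688+LPS against LPS (purple). All points are open, since none passed at adjusted p below 0.05, and the intervals of Slc2a3, Hk1 and Pkm are the widest against PBS.

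The interaction, which is the ALY688 difference under LPS less that without LPS, was called for none of the 10 members and for 0% of 13476 genes in edgeR, with 1217 genes and no member at an unadjusted p below 0.05. DESeq2 called 4 genes, none of them a member, with 1558 at an unadjusted p below 0.05. The largest member values were those of Slc2a3 (1.16 ± 0.68, adjusted p = 0.508) and Hk1 (0.76 ± 0.56, adjusted p = 0.559). The comparisons with and without ALY688 use separate mice, and the differing counts of 6 and 8 members called under LPS were not shown to differ by this test.

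None of the pathway genes passed in either ALY688 comparison or in the interaction. The smallest unadjusted p-values against PBS belonged to Ndrg1 (-0.96 ± 0.42, p = 0.0317) and the lactate transporter gene Slc16a7 (0.52 ± 0.22, p = 0.0322), each with an adjusted p of 0.442 in edgeR. In the interaction the smallest was that of Vegfa (-1.28 ± 0.51, p = 0.017, adjusted p = 0.506, edgeR).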

How the data were processed

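RNA sequencing of blood was deposited as 1 table of raw counts per gene for each of 30 mice. Per the submitters' processing notes the authors used HISAT2 2.0.5 and featureCounts 1.5.0-p3; the genome build, annotation and strand setting were not given in the sources used here, and per the labels' protocols libraries were directional or non-directional without saying which. Values are deposited counts, with no normalization by the authors. Gene symbols were taken from GENCODE M21, which named 54495 of 54532 IDs. Replicates are mice with separate labels; no pair of libraries agreed within sampling noise.

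Each comparison was fitted over all genes with edgeR 4.0.16 in R 4.3.3 (TMM factors, filterByExpr, robust quasi-likelihood, two-sided test, Benjamini-Hochberg adjustment over all genes tested), using only the mice of the 2 groups compared, or all 4 groups for the interaction. Log2 CPM for likeness used a prior count of 2, and the marker relations a pseudocount of 0.5 CPM. DESeq2 1.42.0, other scalings, no filter, a globin covariate, removal of globin genes, a mouse-number block and leaving out each mouse were alternatives. Leaving out the 6 libraries of few detected genes, and the alternatives for the pathway lists, were chosen after seeing the data. The fit was tested on simulated data.

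All 10 members are described whatever their values. From each pathway list the text names up to 6 genes with the smallest p among those that passed, taken for each LPS comparison. Pfkl, Pfkm, Ldhb, Bnip3l, Bpgm, Aldoa and Tpi1 in LPS against PBS, and Gapdh in ALY688+LPS against ALY688, were named after their values were seen. So were the markers Cx3cr1, Csf3r, S100a8, S100a9, Pf4, Itga2b, Ppbp and Lyz2. From the other comparisons the text names genes with the smallest p, except for a result that is not reported here. For likeness the 2 best-correlated genes with an established symbol are named. The members and lists were chosen with earlier results of these data known. Of 9 red cell markers, Ahsp was not matched.

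Mouse numbers recur across groups. Same-numbered mice did not deviate together (correlations of -0.501 to 0.298, over 0.1 in 2 of 9, 1 of 3, 2 of 4 and 2 of 7 pairs), so the fit without a block was used.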

Additional observations from a re-analysis of the deposited data

Results flagged for a closer look

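In 40 sets of values, 10 members in 4 groups, 3 had a mouse that stood far from the rest of its group by Dixon's test, which chance flags in about 1 in 20 sets. Hk1 was at 313.3 CPM in ALY688 mouse 7, against 147.0 in the next mouse. Pkm was at 726.5 CPM in the same mouse, against 407.1 in the next. Pfkfb3 was at 77.16 CPM in PBS mouse 9, against 38.25 in the next. Both mice are among the 6 whose libraries had fewer than 16000 genes with a count.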

How the results depend on the processing

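Under every alternative run, the number of members called stayed at 0 for both ALY688 comparisons and for the interaction, at 4 to 8 for LPS against PBS and at 6 to 8 for ALY688+LPS against ALY688. Of 1340 log2 fold changes of single members under alternatives, 1252 kept direction and side of the threshold, 10 lost a call, 10 gained a call and 68 changed sign, none of which was called in either fit. The calls lost were, against PBS, those of Hif1a and Hk2 with the globin covariate and with the block below, Ldha with the globin covariate and Pfkfb3 without 1 LPS mouse, and, in ALY688+LPS against ALY688, those of Hif1a and Hk2 without TMM factors and Hk2 with the globin covariate and without 1 mouse. The calls gained were all against PBS: Pkm without TMM factors (1.52) and without the libraries of few detected genes (0.78), and Pgk1 under the same and with the block, without either of 2 PBS mice, without the filter on low counts (0.86), with all 4 groups in 1 fit (0.71) and with the globin covariate (1.71).

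Fits with the mouse number as a replicate block called 0, 0, 5, 8 and 0 members in ALY688 against PBS, ALY688+LPS against LPS, LPS against PBS, ALY688+LPS against ALY688 and the interaction. Over all genes the block gave 1976 rising and 1555 falling in LPS against PBS, and 2562 and 2308 in ALY688+LPS against ALY688. With it Hif1a (0.51, adjusted p = 0.0585, edgeR) and Hk2 (1.01, adjusted p = 0.0523) were not called against PBS and Pgk1 was (0.93, adjusted p = 0.0275), while Pgk1 in ALY688+LPS against LPS (0.094) and Hk3 in the interaction (-0.001) changed sign. At most 1 mouse in a comparison correlated best with its own number, so the numbers are not known to pair the mice.

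Without TMM factors the all-gene median moved to 0.50 in ALY688 against PBS, where Hk1 (0.027), Hk3 (0.42), Pfkfb3 (0.30), Pkm (0.034), Ldha (0.30) and Pgk1 (0.18) turned positive. It moved to -0.49 in ALY688+LPS against LPS, where Hif1a (-0.20), Slc2a3 (-0.14), Hk1 (-0.39), Pfkfb3 (-0.19) and Pkm (-0.44) turned negative. In LPS against PBS Slc2a3 (0.26) and Hk1 (0.29) turned positive against a median of 1.04. In the interaction, with a median of -0.998, Hif1a (-0.78), Slc2a3 (-0.014), Hk1 (-0.41), Hk3 (-0.89), Pfkfb3 (-0.48), Pkm (-0.48), Ldha (-0.91) and Pgk1 (-0.71) turned negative.

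With the globin covariate, calls in LPS against PBS fell to 1623 rising and 1645 falling genes. The sign changed for Hif1a (-0.072), Slc2a1 (-0.069) and Hk3 (0.033) in ALY688 against PBS, and for Slc2a3 (-0.24), Hk1 (-0.33), Hk2 (0.013), Pkm (-0.061) and Ldha (0.056) in ALY688+LPS against LPS. It also changed for Slc2a3 (2.14) and Hk1 (1.30) in LPS against PBS, for Hk1 (0.17) in ALY688+LPS against ALY688, and for Slc2a3 (-0.009), Hk1 (-0.24) and Hk3 (-0.056) in the interaction. Globin shares did not overlap between PBS mice (45.2% to 64.4%) and LPS mice (18.5% to 43.7%), and the cause was not tested.

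Small values near 0 changed sign elsewhere. These were Slc2a1 in ALY688 against PBS with DESeq2 (-0.001) and without the libraries of few detected genes (-0.11), and Slc2a1 in the interaction without those libraries (0.039). In ALY688+LPS against LPS they were Pgk1 with RLE size factors (0.001), Pkm without globin genes (-0.004), without the filter (-0.017) and without the libraries of few detected genes (-0.009), and Hk1 without those libraries (-0.11).

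Leaving out 1 mouse at a time called 5 to 7 members in LPS against PBS and 7 to 8 in ALY688+LPS against ALY688. Signs changed for Hk2 (-0.063 to 0.15) and Slc2a1 (-0.025 to 0.10) in ALY688 against PBS and for Hk3 (-0.097 to 0.14) in the interaction. In ALY688+LPS against LPS they changed for Hk1 (-0.12 to 0.42), Pkm (-0.082 to 0.093), Ldha (-0.21 to 0.005), Pgk1 (-0.043 to 0.05), Slc2a3 (-0.048 to 0.84) and Pfkfb3 (-0.018 to 0.34).

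With 4 LPS mice, the median gene's 95% interval in ALY688+LPS against LPS reached 0.53 to each side on the log2 scale before any adjustment for the number of genes. The lowest member count in a library was 22, for Slc2a1 in a PBS mouse. The globin share and the number of detected genes differed between mice, and the groups with and without LPS may differ in more than LPS.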

Other observations

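On the TMM scale, Hif1a moved against several of the other members from mouse to mouse within groups. Over 30 mice, the Pearson correlation of its group-centred log2 CPM was -0.735 with Pkm, -0.724 with Hk1, -0.722 with Pgk1 and -0.636 with Slc2a3, and 0.383 with Slc2a1. Hif1a correlated at 0.644 with the number of genes that had a count in the library, whereas Hk1 did so at -0.817, Slc2a3 at -0.781 and Pkm at -0.665. Pkm and Pgk1 correlated with each other at 0.961. These values share libraries and scaling factors, and the pairs were not computed without TMM factors. Against marker sums, the sign for Hif1a turned without TMM factors for monocytes (-0.594 to 0.637) and neutrophils (-0.312 to 0.66). It held for platelets (-0.631 to -0.315) and T cells (0.643 to 0.946).

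Bpgm, which makes the red cell metabolite 2,3-bisphosphoglycerate from a glycolytic intermediate, had by far the highest level of the glycolytic list, 19970 ± 11600 CPM in PBS mice (SD, n = 9) and 5305 ± 4826 in LPS mice (n = 4). Its log2 fold change of -1.89 ± 0.75 did not pass in edgeR's test. The globin share of counts was 56.3% ± 6.22 in PBS mice and 30.4% ± 10.4 in LPS mice.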
